A study of Mus musculus with 18 samples.

Results

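The data describe 9 transcription factors that mark the retinal pigment epithelium (RPE) and the early eye field: *Otx2*, *Otx1*, *Mitf*, *Tfec*, *Sox9*, *Pax6*, *Lhx2*, *Six3* and *Rax*. They were selected by gene symbol, and each symbol matched 1 of the 52636 genes in the count table. RNA-seq had been performed on RPE cells of C57BL/6 mice at postnatal day 14, with 3 libraries in each of 6 groups and both eyes of 1 mouse in each library. One group was left uninjected. The other 5 groups received, by injection under the retina on the day of birth, the adeno-associated virus AAV8 with an insert driven by the *Best1* promoter, which is active in the RPE. The inserts were GFP, nSREBP2 (the nuclear, active form of the sterol-responsive transcription factor SREBP2), a control hairpin against LacZ (ctrl sh), and 2 hairpins against the endocytic receptor gene *Lrp2* (*Lrp2* sh1 and *Lrp2* sh2). No mutant allele is given for any group, and the share of RPE cells that took up the virus is not known from the counts. Cells were loosened with papain from eyecups without retina, so that RNA of neighbouring tissues could be carried along. GFP is the control of nSREBP2, and ctrl sh is the control of both hairpins.

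The RPE is a pigmented layer behind the retina that recycles retinoids for the photoreceptors, moves water and ions, and takes up shed outer segments. Its fate is set in the optic vesicle by the homeodomain factor OTX2 and the basic helix-loop-helix factor MITF, which together activate pigment genes. The eye field factors SIX3, RAX, PAX6 and LHX2 act before this step and are later used by the neural retina and the ciliary margin, so their transcripts are not exclusive to the RPE. SOX9 acts with OTX2 on visual cycle genes of the RPE. The measurements below show whether these factors were lower in the same libraries as the genes of RPE function.

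Library totals ran from 8921885 to 13696934 gene counts, with the lowest in the uninjected group. The manipulated genes went with the labels. *Srebf2*, which encodes SREBP2, was 2.15-fold higher in nSREBP2 than in GFP. *Lrp2* was at 87.7 to 167 CPM in ctrl sh, 29.7 to 42.8 CPM in *Lrp2* sh1 and 34.6 to 43.9 CPM in *Lrp2* sh2, where CPM is the count scaled to a library of 1000000 reads with TMM factors over all 18 libraries. Some libraries stood apart. Uninjected replicate 1 held 712 CPM of the lens crystallin gene *Cryaa*, against at most 0.553 CPM in the other 17 libraries. The defining RPE gene *Rpe65*, the isomerase of the visual cycle, was at 371 to 1115 CPM in the uninjected libraries but at 1.07 to 97.8 CPM in the injected ones, so that this defining marker was low after injection, while 10 pigment genes summed to 6645 to 11980 CPM over all libraries. The melanocyte genes *Sox10* (83.2 to 140.6 CPM) and *Pax3* (16.8 to 36.7 CPM) were present in every library. Y-linked transcripts were found in 3 of 3 nSREBP2, 2 of 3 *Lrp2* sh2 and 1 of 3 uninjected libraries and in none of the GFP, ctrl sh and *Lrp2* sh1 libraries, so the insert and sex cannot be told apart in nSREBP2 against GFP alone.

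Promoter sequence from RefSeq (GRCm38.p6) was at hand for 6 of the 9 factors. The stretches below are shown because *Otx2* and *Six3* were low in the same groups, and because *Mitf* counts add up transcripts from several starts. *Otx2* has several start sites as well, and only the most upstream of its available windows is shown. The *Otx2* and *Six3* stretches lie inside the annotated span of their gene, so starts further upstream are not covered. Each stretch runs 5′ to 3′ on the strand of the gene within the 250 bases before a start site, without bases of annotated exons. Capitals mark matches to the motifs named after the sequences. The *Otx2* stretch is chr14:48667645-48667894 on the minus strand, the *Six3* stretch is chr17:85620584-85620789 on the plus strand, and the *Mitf* stretches are chr6:97806808-97807051, before the most upstream start, chr6:97929567-97929798, before a start between, and chr6:97991533-97991782, before the most downstream one, all on the plus strand.
Otx2: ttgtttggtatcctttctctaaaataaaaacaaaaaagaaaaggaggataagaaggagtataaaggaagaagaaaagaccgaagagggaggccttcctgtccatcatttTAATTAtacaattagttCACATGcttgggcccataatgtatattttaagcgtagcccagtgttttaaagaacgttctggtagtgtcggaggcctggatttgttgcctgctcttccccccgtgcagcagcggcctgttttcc
Six3: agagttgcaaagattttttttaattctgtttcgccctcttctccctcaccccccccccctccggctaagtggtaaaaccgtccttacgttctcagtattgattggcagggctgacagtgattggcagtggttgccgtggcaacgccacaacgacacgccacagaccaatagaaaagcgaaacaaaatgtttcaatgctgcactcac
Mitf, most upstream start: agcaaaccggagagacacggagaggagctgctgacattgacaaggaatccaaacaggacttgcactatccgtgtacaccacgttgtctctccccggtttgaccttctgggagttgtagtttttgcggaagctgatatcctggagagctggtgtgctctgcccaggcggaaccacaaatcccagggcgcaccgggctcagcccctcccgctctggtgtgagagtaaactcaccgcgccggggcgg
Mitf, start between: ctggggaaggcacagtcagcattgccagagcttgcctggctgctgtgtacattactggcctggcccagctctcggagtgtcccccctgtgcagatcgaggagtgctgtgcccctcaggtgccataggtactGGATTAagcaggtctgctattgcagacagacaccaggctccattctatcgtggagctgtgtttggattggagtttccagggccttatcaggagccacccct
Mitf, most downstream start: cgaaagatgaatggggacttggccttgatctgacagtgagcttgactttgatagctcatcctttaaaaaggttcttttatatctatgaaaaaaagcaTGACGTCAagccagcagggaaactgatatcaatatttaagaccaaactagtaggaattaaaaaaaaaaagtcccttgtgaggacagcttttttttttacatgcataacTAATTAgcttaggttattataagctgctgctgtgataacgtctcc

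Both strands were searched for 6 motifs. CATGTG, an E-box bound by MITF-type factors, was found in the *Otx2* stretch, and 12.3% of 32851 promoter windows of 250 bases in the mouse genome hold it. TAATTA, a core of many homeodomain sites, was found in the *Otx2* stretch and in the downstream *Mitf* stretch, and 4.84% of all windows hold it. TGACGTCA, the cAMP response element, was found in the downstream *Mitf* stretch, which is the start used by melanocytes, and in 1.55% of all windows. TAATCC, the OTX-type core, was found on the other strand (printed as GGATTA) in the *Mitf* stretch before the start between, and 6.25% of all windows hold it. CACGTG (6.02% of windows) and CACCCCAC (the core of the sterol regulatory element, 2.58%) were in none of the 5 stretches. A match describes the letters of the window and no binding was measured.

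Levels per length separated abundant from rare factors. Counts were divided by the length of all annotated exons of a gene (4135 to 11694 bases in the GENCODE M21 annotation of GRCm38). In the uninjected group *Mitf* was at 30.5 ± 8.67 CPM per kb (SD, n = 3), *Otx2* at 29.8 ± 14.3, *Sox9* at 23.2 ± 3.18 and *Six3* at 12.98 ± 1.75 CPM per kb. *Lhx2* was at 4.04 ± 2.27, *Pax6* at 1.99 ± 1.14 and *Otx1* at 0.777 ± 0.744 CPM per kb. *Rax* (0.212 ± 0.306) and *Tfec* (0.189 ± 0.0435 CPM per kb) were close to the limit of detection, and *Rax* had no count in uninjected replicate 1, where the depth allows up to 3 counts. The counts of the rare factors were low throughout, with 6 to 28 counts of *Tfec* and 0 to 65 counts of *Rax* in a library.

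**Figure D1:**
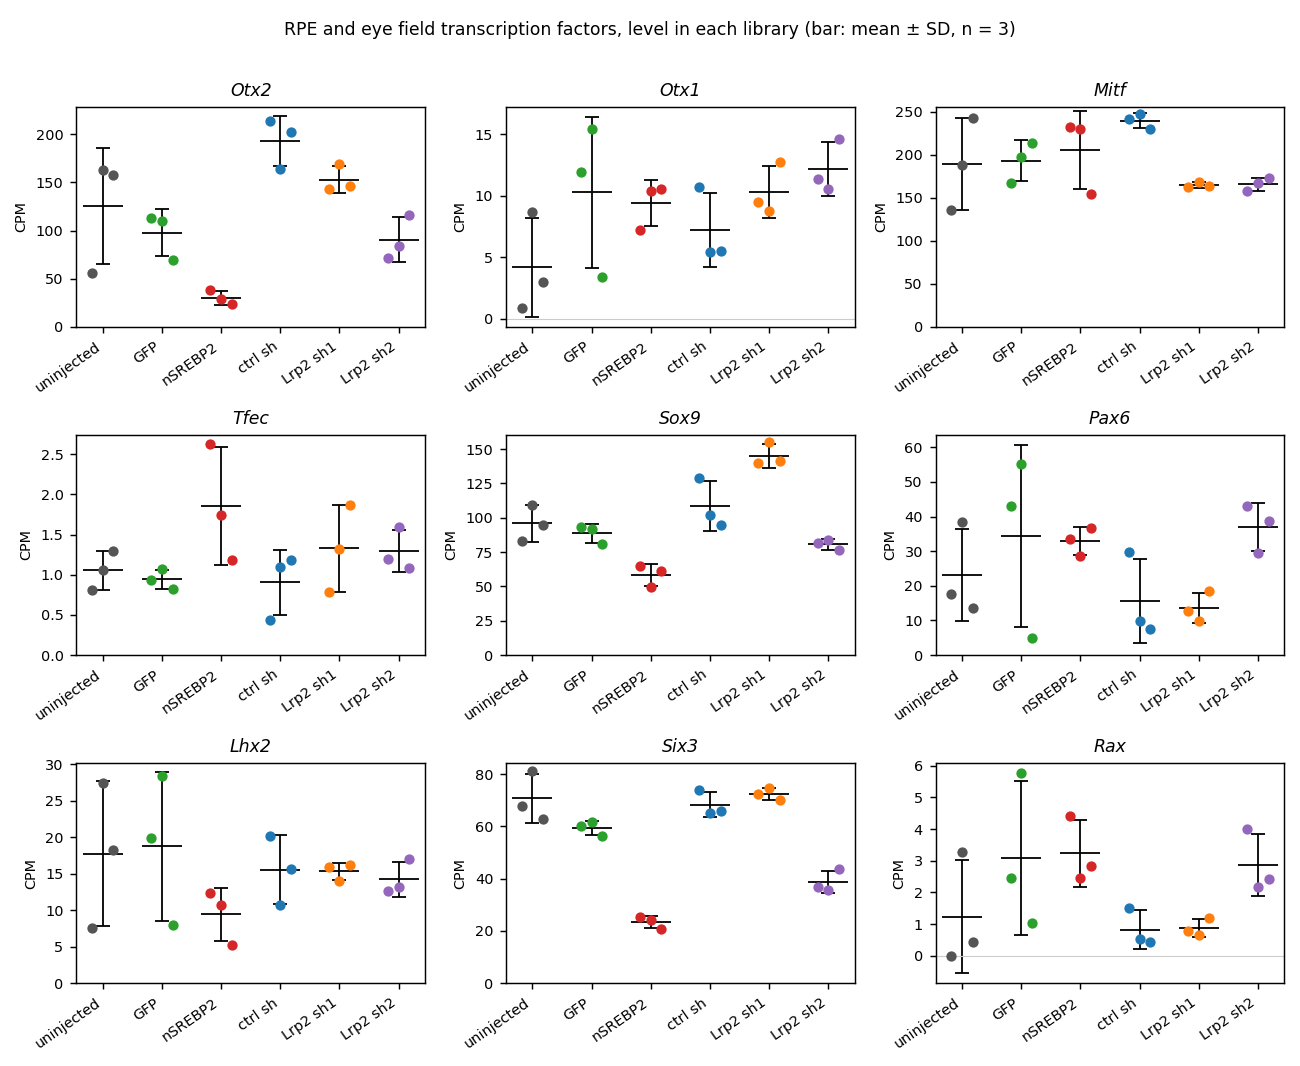
Level of each of the 9 factors in CPM (y axis) in the 18 libraries, by group (x axis). Points are libraries and bars are the mean ± SD of 3 libraries. *Otx2*, *Sox9* and *Six3* are lowest in the 3 nSREBP2 libraries (*Otx2* at 23.6 to 38.1 CPM), whereas *Pax6* ranges from 4.80 to 55.3 CPM within GFP alone.

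Over all 6 groups, 3 of the 9 factors differed (*Otx2*, *Six3* and *Sox9*), while 48.7% of all tested genes passed this test. The adjusted *P* was 5.71e-05 for *Otx2*, 7.66e-09 for *Six3* and 2.63e-06 for *Sox9*. *Mitf* (adjusted *P* = 0.0664) and *Rax* (0.087) were next, and the other 4 were at 0.178 to 0.379. The count was 5 with DESeq2, 7 without a filter on low counts, and 5 without GFP replicate 3, uninjected replicate 1 or uninjected replicate 2.

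The first comparison asked how the factors responded to active SREBP2. In nSREBP2 against GFP, *Otx2*, *Six3* and *Sox9* fell, none rose, and 6 factors did not pass the test. Among all 17927 genes tested, 8.47% were lower and 12.6% were higher at the same threshold, an adjusted *P* under 0.05. *Otx2*, *Six3* and *Sox9* stood below all GFP libraries in every nSREBP2 library, as did 17.8% of all genes, and *Tfec* stood above them, as did 19.7%. Of the 3 that fell, *Otx2* and *Six3* also changed by more than 1 on the log2 scale, as did 6.67% of all genes in either direction. With sex included as a covariate in the joint model of 18 libraries, the log2 fold change (log2FC) was −2.21 for *Otx2* (adjusted *P* = 0.00197), −1.28 for *Six3* (3.21e-05) and −0.58 for *Sox9* (0.0403). This sex term was estimated only from the uninjected and *Lrp2* sh2 groups, where libraries with and without Y-linked transcripts occurred. It therefore also carries other differences between those libraries, which include the uninjected one with lens transcripts. Genes of other cell types moved in the same comparison: all 6 fibroblast genes (34260 to 43620 CPM in sum in GFP, 70880 to 86220 CPM in nSREBP2) and all 8 macrophage genes rose and 3 of 5 endothelial genes fell, and their part in the levels of the factors was not tested.

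*Otx2* lies at chr14:48657677-48673819 on the minus strand. It was at 113, 110.2 and 69.7 CPM in the GFP libraries and at 38.1, 29.3 and 23.6 CPM in the nSREBP2 libraries. The uninjected libraries had 55.9, 163 and 158 CPM, and the lowest of them was replicate 1, the library with lens transcripts. Every nSREBP2 library was therefore below every other library of the series. The log2FC against GFP was −1.69 ± 0.20 (SE, adjusted *P* = 0.000375), a level of 0.310 of the control. In the hairpin groups, *Otx2* was at 213, 164 and 202 CPM in ctrl sh, at 143, 169 and 146 CPM in *Lrp2* sh1 and at 71.9, 83.6 and 117 CPM in *Lrp2* sh2. All *Lrp2* sh2 libraries were below all ctrl sh libraries, whereas *Lrp2* sh1 and ctrl sh overlapped. *Otx2* fell in *Lrp2* sh2 (log2FC −1.08 ± 0.16, adjusted *P* = 0.00206), but against the uninjected libraries its log2FC was −0.48 and did not pass (0.364). In *Lrp2* sh1 the log2FC was −0.34 ± 0.10 and missed the threshold (adjusted *P* = 0.0904), but it passed with DESeq2 (0.0227). Ordered by mean level, the groups were ctrl sh, *Lrp2* sh1, uninjected, GFP, *Lrp2* sh2 and nSREBP2, and only the last step was free of overlap between neighbours. *Otx2* was also higher in ctrl sh than in GFP (log2FC 0.97 ± 0.17, adjusted *P* = 0.021), as 1 of 9 factors in a comparison where 2.32% of all genes were higher. This call was lost without GFP replicate 2 (0.0623) or ctrl sh replicate 3 (0.0859). Some exon bases of *Otx2* are shared with neighbouring transcripts, 154 on the opposite strand and 168 on the same strand, of 4221 in all. The overlapping *Otx2os1*, chosen for its position, fell in nSREBP2 (log2FC −1.98, adjusted *P* = 0.000435). It did not pass in *Lrp2* sh2 (−0.70, 0.162) or in ctrl sh against GFP (−0.26, 0.809).

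*Otx1*, the paralog of *Otx2* that can act in its place in the optic vesicle, did not pass the main test in the comparisons where *Otx2* fell. Whether the changes of *Otx1* and *Otx2* differed was not tested. *Otx1* was at 3.45 to 15.4 CPM in GFP and 7.24 to 10.6 CPM in nSREBP2, and these ranges overlapped (log2FC −0.12 ± 0.42, adjusted *P* = 0.884). In *Lrp2* sh2 it was at 10.6 to 14.6 CPM against 5.47 to 10.7 CPM in ctrl sh (log2FC 0.75 ± 0.26, adjusted *P* = 0.0733). It passed there with DESeq2 (adjusted *P* = 0.0339), without a filter on low counts (0.0215) and without ctrl sh replicate 1 (log2FC 1.14, 0.00428). The lowest value was 0.908 CPM in uninjected replicate 1.

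*Six3*, a repressor needed for eye field and lens formation, lies at chr17:85613608-85629302 on the plus strand. It was at 60.3, 61.6 and 56.5 CPM in GFP and at 25.3, 24.1 and 20.8 CPM in nSREBP2. The ctrl sh libraries had 74.1, 65.2 and 65.8 CPM and the *Lrp2* sh2 libraries 37.0, 35.5 and 43.7 CPM. Both groups were thus below their control in all libraries, and their spread was small. *Six3* fell in nSREBP2 (log2FC −1.35 ± 0.09, adjusted *P* = 1.26e-05) and in *Lrp2* sh2 (−0.81 ± 0.09, adjusted *P* = 0.00047). *Lrp2* sh1 had 72.5, 74.6 and 70.1 CPM, close to ctrl sh (log2FC 0.08 ± 0.07, adjusted *P* = 0.543). The order of the groups was *Lrp2* sh1, uninjected, ctrl sh, GFP, *Lrp2* sh2 and nSREBP2, and the last 3 steps were free of overlap. *Six3* shares 274 of 5446 exon bases with genes on the opposite strand. The antisense transcript *Six3os1* was at 102.6 to 115.2 CPM in GFP and 32.4 to 40.5 CPM in nSREBP2. It was at 94.7 to 117.5 CPM in ctrl sh and 55.3 to 72.4 CPM in *Lrp2* sh2. Since the sources used here do not say whether strand was used in counting, reads of the shared bases cannot be assigned. *Six3os1* fell as well, with a log2FC of −1.64 in nSREBP2 (adjusted *P* = 5.38e-06) and −0.68 in *Lrp2* sh2 (0.00331), and it was chosen for its position.

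*Sox9*, which lies at chr11:112782224-112787760 on the plus strand and overlaps no other gene, was the only one of the 9 factors that passed in opposite directions under the hairpins. It was at 93.3, 92.0 and 80.5 CPM in GFP and at 64.9, 49.6 and 61.1 CPM in nSREBP2. It was at 129, 102 and 94.9 CPM in ctrl sh, 139.6, 155 and 141 CPM in *Lrp2* sh1, and 81.9, 83.8 and 76.3 CPM in *Lrp2* sh2. All nSREBP2 libraries were below GFP, all *Lrp2* sh1 libraries were above ctrl sh, and all *Lrp2* sh2 libraries were below it. *Sox9* fell in nSREBP2 (log2FC −0.60 ± 0.10, adjusted *P* = 0.0024) and in *Lrp2* sh2 (−0.42 ± 0.11, adjusted *P* = 0.0259) and rose in *Lrp2* sh1 (0.42 ± 0.10, adjusted *P* = 0.0476). The hairpin calls were near the threshold. The rise in *Lrp2* sh1 was lost in 5 of 6 fits that left out a library (adjusted *P* 0.106 to 0.173 in these 5), and the fall in *Lrp2* sh2 was lost without any of the *Lrp2* sh2 libraries (0.0601 to 0.0665). *Sox9* is also expressed by Muller glia, and the summed level of 5 Muller glia genes was 903 to 1074 CPM in GFP, 568 to 703 CPM in nSREBP2, 1252 to 1319 CPM in ctrl sh, 969 to 1062 CPM in *Lrp2* sh1 and 770 to 911 CPM in *Lrp2* sh2. In each of the 3 comparisons 1 of the 4 tested genes passed, *Glul*, which was lower. The median log2FC of the 4 was −0.184 in nSREBP2 (3 below 0), 0.125 in *Lrp2* sh1 (2 below 0) and 0.126 in *Lrp2* sh2 (2 below 0). The lower sums were thus not shared by all tested genes. Of the 5 Muller glia genes, *Hes5* was at most 0.621 CPM in any library, and the part of Muller glia in the *Sox9* level was not tested.

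The second comparison asked how the factors responded to a lower level of *Lrp2*. In *Lrp2* sh1 against ctrl sh, *Mitf* fell and *Sox9* rose, and 7 of the 9 factors did not pass. Over all 17801 genes tested, 2.28% were lower and 3.06% were higher, and in 12.3% and 12.9% the groups did not overlap, as for *Mitf* and *Sox9*. In *Lrp2* sh2 against ctrl sh, *Otx2*, *Six3*, *Mitf* and *Sox9* fell, *Rax* rose, and 4 did not pass. Over all 18089 genes tested, 9.48% were lower and 8.59% were higher. In *Lrp2* sh2 all 5 had no overlap with ctrl sh, as had 19.6% of all genes toward lower and 17.2% toward higher levels. Among genes of other cell types, 4 of 5 endothelial genes fell in *Lrp2* sh2 (1468 to 1581 CPM in sum in ctrl sh, 973 to 1040 CPM in *Lrp2* sh2) and all 3 tested bipolar cell genes rose, and their part in the levels of the factors was not tested. The hairpins share the ctrl sh libraries, so their values are given side by side and no overlap between them was computed. *Lrp2* itself fell by 1.68 on the log2 scale with sh1 and by 1.60 with sh2, and by 2.18 with nSREBP2. In the joint model with sex as covariate, no factor passed in *Lrp2* sh1 (*Mitf* at an adjusted *P* of 0.0509) and *Otx2*, *Six3* and *Mitf* fell in *Lrp2* sh2. *Mitf* in *Lrp2* sh1 missed the threshold in the joint model without sex as well (0.0815). No ctrl sh or *Lrp2* sh1 library had Y-linked transcripts, so sex did not differ in that comparison. The hairpins were also compared with each other. In *Lrp2* sh2 against *Lrp2* sh1, *Otx2*, *Six3* and *Sox9* were lower (as were 12.3% of all genes) and *Pax6* and *Rax* were higher (10.2%), all without overlap between the hairpins (20.8% of all genes lower, 18.2% higher). Y-linked transcripts were found in 2 of 3 *Lrp2* sh2 and 0 of 3 *Lrp2* sh1 libraries. With sex as covariate the calls of *Pax6* (adjusted *P* = 0.101) and *Rax* (0.0914) were lost, and in the joint model without it those of *Otx2* (0.0796), *Pax6* (0.105) and *Rax* (0.141). *Lrp2* itself did not pass (log2FC 0.08 ± 0.13, adjusted *P* = 0.728).

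A test of the difference between effects set nSREBP2 beside the hairpins. The effect of nSREBP2 minus that of *Lrp2* sh1 was below 0 for *Otx2*, *Six3* and *Sox9* (4.68% of all genes), and the effect of nSREBP2 minus that of *Lrp2* sh2 was below 0 for *Six3* (2.4%), both in the joint model of all libraries. Leaving out 1 library in turn ended the *Otx2* call in 11 of 18 fits and the *Six3* call against *Lrp2* sh2 in 6 of 18. For *Otx2* the nSREBP2 effect minus the *Lrp2* sh2 effect was −0.61 ± 0.42 (adjusted *P* = 0.469), a difference this design did not resolve.

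*Mitf*, at chr6:97807052-98021349 on the plus strand, encodes the factor that drives melanin genes. It was at 242, 247 and 229.9 CPM in ctrl sh, 163, 168 and 164 CPM in *Lrp2* sh1, and 158, 167 and 173 CPM in *Lrp2* sh2. Neither hairpin group overlapped ctrl sh. *Mitf* fell in *Lrp2* sh1 (log2FC −0.54 ± 0.06, adjusted *P* = 0.000969) and in *Lrp2* sh2 (−0.52 ± 0.06, adjusted *P* = 0.00076). In the joint fit of all libraries the *Lrp2* sh1 call was lost (log2FC −0.54, adjusted *P* = 0.0815). Against the uninjected libraries (136, 188 and 243 CPM), neither hairpin passed (−0.21 and −0.20, adjusted *P* = 0.378 and 0.447). In nSREBP2 *Mitf* was at 233, 229.9 and 154 CPM and in GFP at 167, 197 and 214 CPM, with a log2FC of 0.09 ± 0.15 (adjusted *P* = 0.742). *Mitf* is also made by melanocytes from the downstream start shown above, and counts per gene do not separate the 2 sources. Of 7 melanocyte genes, 0 passed in *Lrp2* sh1 (2.28% of all genes were lower, 3.06% higher) and 2 were lower in *Lrp2* sh2 (9.48%). Their median log2FC was −0.074 in *Lrp2* sh1, with 6 of 7 below 0, and −0.029 in *Lrp2* sh2, with 4 of 7 below 0. The summed level of these genes was 850 to 900 CPM in ctrl sh, 688 to 783 in *Lrp2* sh1 and 639 to 745 in *Lrp2* sh2. Their part in the fall of *Mitf* was not tested.

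*Tfec*, a relative of *Mitf* that is found in RPE and macrophages, was rare in all groups. It was at 0.825 to 1.07 CPM in GFP and at 1.19 to 2.63 CPM in nSREBP2 (log2FC 0.97 ± 0.36, adjusted *P* = 0.0917), without overlap. All 8 macrophage genes rose in the same comparison, from a summed 279 to 324 CPM to 512 to 551 CPM, and their part in the *Tfec* level was not tested. In the hairpin groups *Tfec* ranged from 0.435 to 1.87 CPM and did not pass.

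*Pax6*, *Lhx2*, *Otx1* and *Rax* varied widely between mice of some groups. *Pax6*, at chr2:105668900-105697364 on the plus strand, was at 43.1, 55.3 and 4.80 CPM in the GFP libraries and at 38.4 CPM in uninjected replicate 2 against 17.6 and 13.7 CPM in the others. It was at 33.4, 28.6 and 36.7 CPM in nSREBP2, at 29.7, 9.84 and 7.50 CPM in ctrl sh, at 12.6, 9.84 and 18.5 CPM in *Lrp2* sh1 and at 43.0, 29.5 and 38.6 CPM in *Lrp2* sh2. The nSREBP2 and *Lrp2* sh2 libraries had an even *Pax6* level, while their controls did not. The log2FC was −0.06 ± 0.58 in nSREBP2 (adjusted *P* = 0.962) and 1.24 ± 0.41 in *Lrp2* sh2 (adjusted *P* = 0.0654), and neither passed. Without ctrl sh replicate 1 the latter was 2.09 (adjusted *P* = 0.00022), and without GFP replicate 3 the former was −0.58 (0.0104).

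*Lhx2*, a LIM homeodomain gene, was at 8.03 to 28.4 CPM in GFP and 5.30 to 12.3 CPM in nSREBP2 (log2FC −0.98 ± 0.42, adjusted *P* = 0.129). It passed without GFP replicate 3, the lowest GFP library (−1.35, adjusted *P* = 0.00779). In the hairpin groups *Lhx2* stayed between 10.8 and 20.2 CPM and did not pass (adjusted *P* = 0.969 and 0.763). *Rax*, at chr18:65928277-65939787 on the minus strand, was at 1.52, 0.547 and 0.422 CPM in ctrl sh and at 3.99, 2.18 and 2.43 CPM in *Lrp2* sh2, without overlap. It rose in *Lrp2* sh2 (log2FC 1.76 ± 0.45, adjusted *P* = 0.0253), but not without ctrl sh replicate 2 or 3 or *Lrp2* sh2 replicate 1 (0.0888 to 0.0929) nor in a fit of all libraries (0.128). Of its 5846 exon bases, 1604 are shared with a gene on the opposite strand.

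The libraries with high eye field factors in the uninjected and GFP groups were also high in some genes of other tissues. Uninjected replicate 2, GFP replicate 1 and GFP replicate 2 had 44.3 to 119.5 CPM of *Optc*, a ciliary body gene, against at most 30.0 CPM in the other 15 libraries. Within these groups the summed level of 5 cartilage genes was higher in the same libraries, at 209.8 CPM in uninjected replicate 2 (51.3 and 31.8 CPM in the others) and at 139.5 and 257 CPM in GFP replicates 1 and 2 against 59.6 CPM in replicate 3. Rod genes were at 48.2, 133 and 366 CPM in sum in GFP replicates 1, 2 and 3. In GFP, 12 amacrine, ganglion and horizontal cell genes were at 133 to 147 CPM in sum. Bipolar cell genes summed to 2.33 to 4.88 CPM in GFP and 13.3 to 18.3 CPM in nSREBP2. Their sum was 2.19 to 3.48 CPM in ctrl sh, 2.85 to 4.17 CPM in *Lrp2* sh1 and 5.53 to 24.4 CPM in *Lrp2* sh2. *Zic1* was at 33.99 CPM in GFP replicate 2 and at 1.65 CPM in GFP replicate 3. Across the 18 libraries *Rax* and *Six6* had a correlation of 0.89 (log2 of CPM + 1). This value describes libraries that share tissue, and no *P* is attached. In *Lrp2* sh2, where *Rax* rose, *Optc* was the 1 of 3 ciliary and iris genes that rose (log2FC 2.31 ± 0.35, adjusted *P* = 0.00221), the other two had values below 0 and the median was −0.18. Against ctrl sh, 12 of 14 rod photoreceptor genes rose as well, from a summed 47.5 to 73.3 CPM in ctrl sh to 117 to 515 CPM. The summed rod level was 48.2 to 366 CPM in GFP and 325 to 467 CPM in nSREBP2, where 2 of 14 rod genes passed, both higher. *Otx2* is expressed by rods and bipolar cells too, and the part of these cells in its level was not tested. Retinal, ciliary and cartilage cells in the preparations, fewer RPE cells and less RNA per cell cannot be told apart in bulk samples, and their part in these results was not tested.

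**Figure D2:**
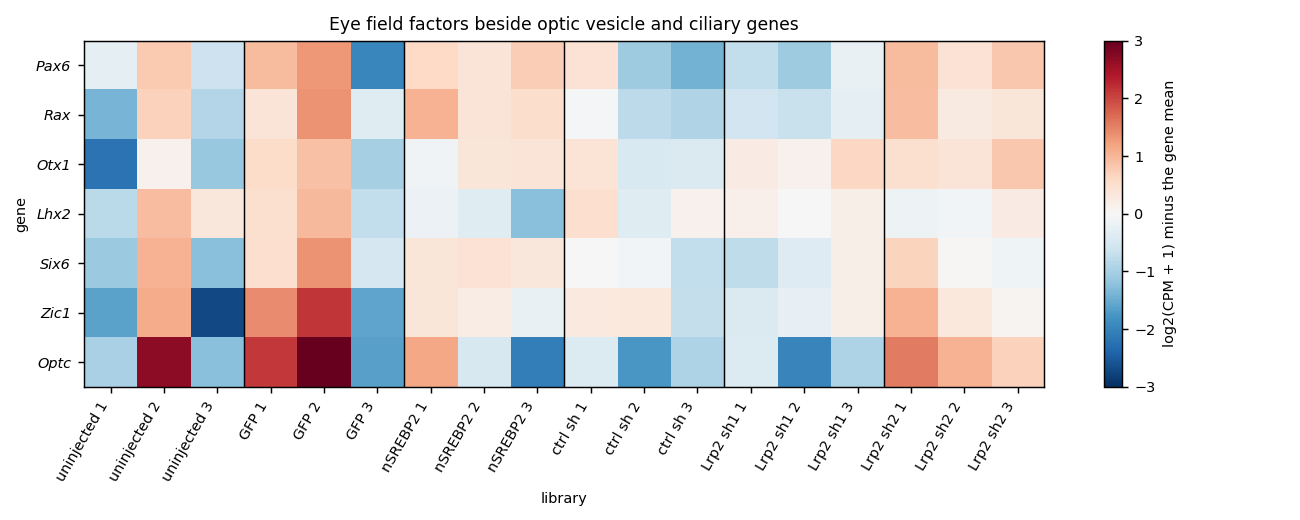
*Pax6*, *Rax*, *Otx1* and *Lhx2* beside the optic vesicle and ciliary genes *Six6*, *Zic1* and *Optc* (rows) in the 18 libraries (columns, grouped). Color is log2(CPM + 1) minus the mean of the gene. Uninjected replicate 2 and GFP replicates 1 and 2 are above the mean in all 7 rows and GFP replicate 3 is below it in all 7.

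The third comparison asked whether a virus with a control insert changed the factors. In GFP against uninjected, 0 of 9 factors passed in edgeR and 0 in DESeq2, and 1, *Six3*, had an unadjusted *P* under 0.05 in edgeR (log2FC −0.27 ± 0.10, adjusted *P* = 0.183). In ctrl sh against uninjected, 0 of the 8 tested passed in either tool and 0 had an unadjusted *P* under 0.05. *Rax* was not tested there because of its low counts. Over all genes, 2.48% passed in the former comparison and 6.49% in the latter. The spread of the uninjected group was wide for *Otx2* (126 ± 60.5 CPM), and leaving out replicate 1 moved its log2FC in GFP from −0.38 to −0.73 (adjusted *P* = 0.0651) without a call.

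**Figure D3:**
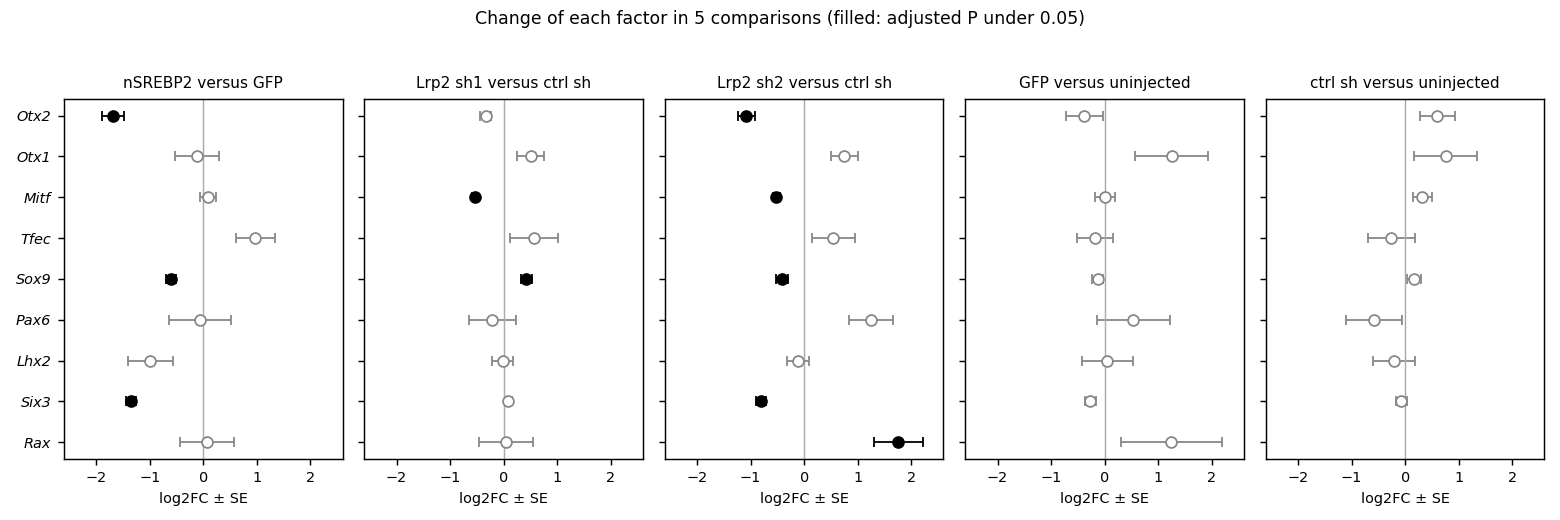
log2FC ± SE (x axis) of the 9 factors (y axis) in 5 comparisons. Filled points had an adjusted *P* under 0.05. 3 factors are filled in nSREBP2, 2 in *Lrp2* sh1, 5 in *Lrp2* sh2 and 0 in either comparison with uninjected, where *Rax* was not tested in ctrl sh.

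Genes of RPE function were set beside the factors in each comparison. A list of 26 such genes held 7 visual cycle genes, 3 genes of retinoid transport, 6 of other transport and related functions, and 10 pigment genes. In GFP against uninjected, 13 of 26 fell and 0 rose, with a median log2FC of −0.91 against −0.004 for all genes, of which 1.82% were lower. All 7 visual cycle genes and all 3 retinoid transport genes were among them, while 0 of 10 pigment genes passed. *Rpe65* had 371, 955 and 1115 CPM in uninjected and 2.29, 1.07 and 1.58 CPM in GFP. For the 9 factors the median log2FC in the same libraries was 0.01, with 0 calls. Their single values ran from −0.38 ± 0.35 for *Otx2* to 1.25 ± 0.68 for *Otx1* and 1.25 ± 0.94 for *Rax*. With SEs this wide, the median and the lack of calls do not show that the factors were unchanged. Without uninjected replicate 1 the function genes had 16 lower calls and the factors still 0, and without GFP replicate 2 there were 8.

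In nSREBP2 against GFP, where *Otx2*, *Six3* and *Sox9* fell, 6 of 26 function genes fell (8.47% of all genes did) and 3 rose (12.6%), with a median log2FC of −0.07. This median was −0.30 with sex as covariate, −0.97 against the uninjected libraries and 0.03 without nSREBP2 replicate 3. *Lrat*, which esterifies retinol, fell by 1.47 on the log2 scale (SE 0.14, adjusted *P* = 0.000105), *Rdh5*, the 11-cis retinol dehydrogenase, by 1.10 (SE 0.15, adjusted *P* = 0.000648) and the pigment gene *Gpr143* by 0.48 (SE 0.12, adjusted *P* = 0.0201). *Best1*, the chloride channel whose promoter is in the virus, rose (1.75 ± 0.19, adjusted *P* = 0.000215), as did *Ttr*, the carrier of retinol-binding protein and thyroxine (0.84 ± 0.22, 0.0229), and *Serpinf1*, which encodes the secreted factor PEDF (0.52 ± 0.11, 0.0101). *Ttr* and *Otx2* thus moved in opposite directions in this comparison. The level of *Ttr* was 40.4 to 72.3 CPM in GFP and 82.9 to 137.5 CPM in nSREBP2, both far below the uninjected 778 to 2148 CPM. The 10 pigment genes had a median log2FC of −0.10 and 3 fell.

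In *Lrp2* sh2 against ctrl sh, 13 of 26 function genes fell (9.48% of all genes did) and 0 rose (8.59%), with a median of −0.59, beside the 4 factors that fell. *Lrat* fell by 4.44 (SE 0.48, adjusted *P* = 0.00038), *Ttr* by 2.94 (SE 0.39, adjusted *P* = 0.001) and the transporter gene *Slc6a13* by 2.88 (SE 0.59, adjusted *P* = 0.00906). The count was 7 without *Lrp2* sh2 replicate 2. In *Lrp2* sh1 only the pigment gene *Slc24a5* fell (log2FC −0.27 ± 0.06, adjusted *P* = 0.0293, beside 2.28% of all genes) and none rose. When any library other than ctrl sh replicate 1 was left out, no function gene passed there. Ctrl sh replicate 1 had 1918 CPM of summed visual cycle genes against 559 and 599 CPM in its group, and without it 4 rose and 1 fell. In ctrl sh against uninjected, 1 of 26 fell (3.37% of all genes were lower). Without ctrl sh replicate 1, 10 fell, 6 of them visual cycle genes, while 0 factors passed with or without this library. In ctrl sh against GFP, where *Otx2* was higher, 5 of 26 function genes were higher (2.32% of all genes were) and 1 was lower. *Ttr*, named after its values were seen, was 24.7-fold higher there (log2FC 4.62 ± 0.27, adjusted *P* = 0.000125). In *Lrp2* sh2 against *Lrp2* sh1, where *Otx2*, *Six3* and *Sox9* were lower, 14 of 26 were lower (12.3% of all genes) and 0 higher. These comparisons share libraries.

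**Figure D4:**
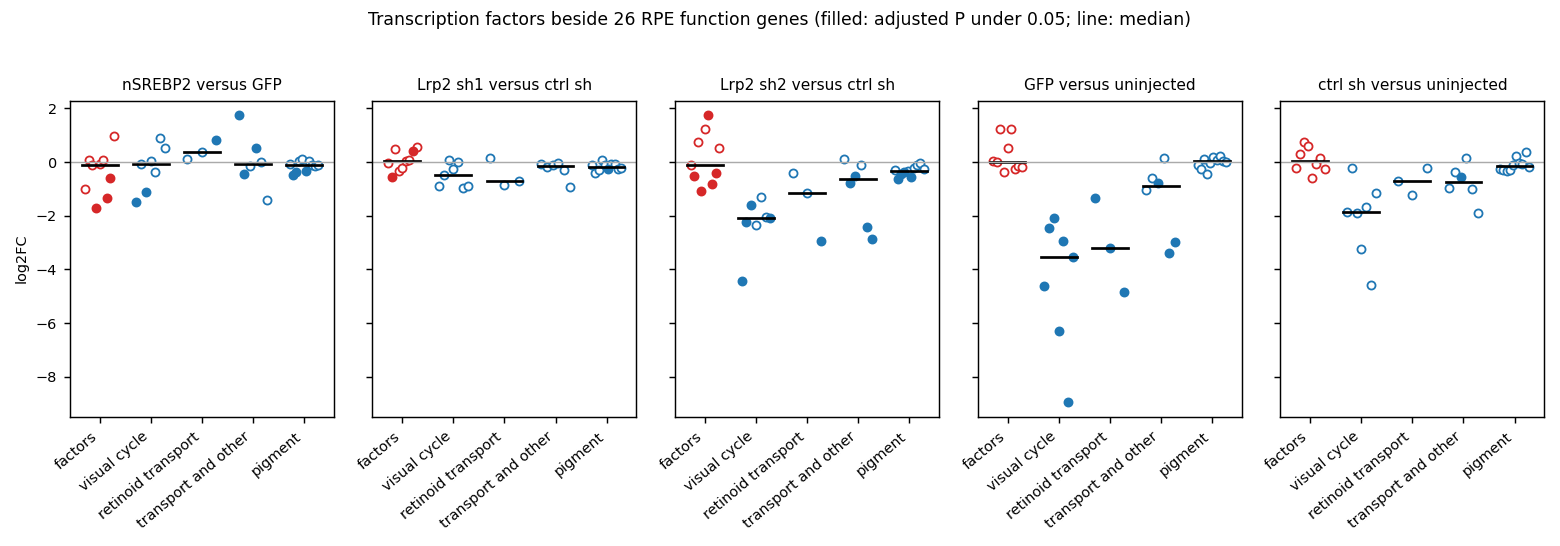
log2FC (y axis) of the 9 factors (red) and of 26 RPE function genes by role (blue) in 5 comparisons. Filled points had an adjusted *P* under 0.05 and lines are medians. The visual cycle genes are lowest in GFP against uninjected (median −3.54), where no factor is filled.

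*Otx2* and the visual cycle were also compared by library. The 7 genes summed to 1804, 4964 and 5724 CPM in uninjected, 198 to 301 CPM in GFP and 170 to 231 CPM in nSREBP2, and GFP had this low sum at an *Otx2* level of 69.7 to 113 CPM. The sum was 559 to 1918 CPM in ctrl sh, 592 to 1093 CPM in *Lrp2* sh1 and 184 to 288 CPM in *Lrp2* sh2. Among the injected groups, those with more *Otx2* (ctrl sh and *Lrp2* sh1) had more of the visual cycle sum, without overlap with the other 3 groups in either measure. Uninjected replicate 1 had the lowest value of its group in both, and at 55.9 CPM of *Otx2* it still had 1804 CPM of the sum. After the group means were removed, *Otx2* and *Ttr* had a correlation of 0.91 over the 18 libraries, given as a description. *Ttr* was picked for it after its values were seen. The value includes uninjected replicate 1, which was far below its group in *Otx2* (55.9 against 163 and 158 CPM) and can weigh heavily in it.

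**Figure D5:**
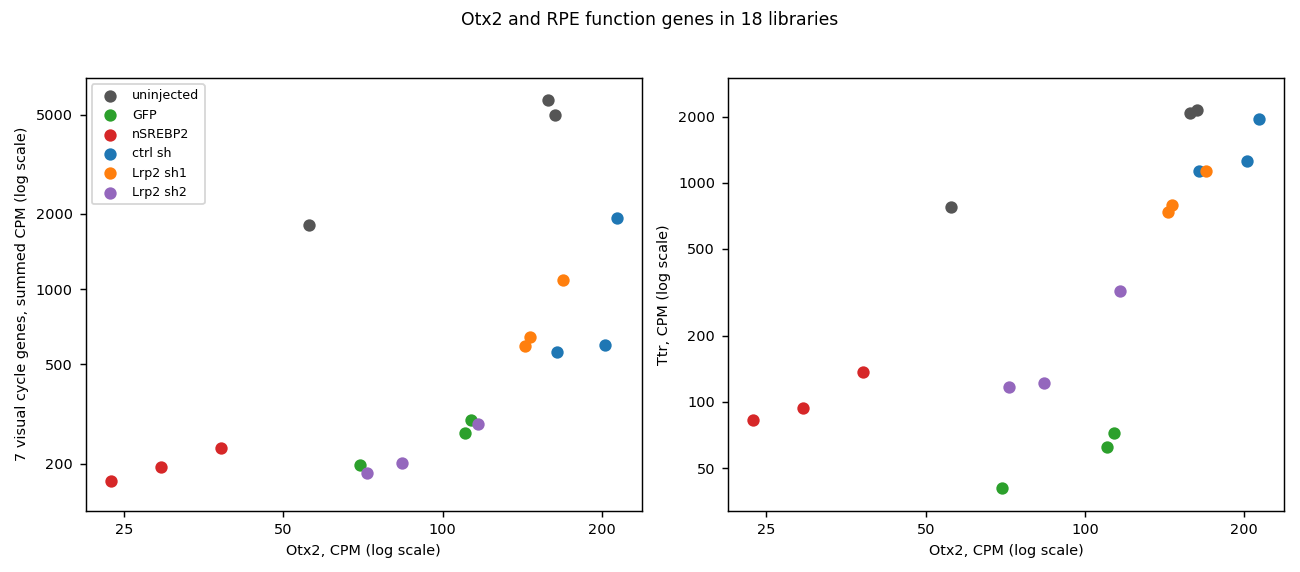
*Otx2* (x axis, CPM, log scale) against the summed CPM of 7 visual cycle genes (left) and against *Ttr* (right), both on log scales, with 1 point per library and colors for groups. GFP and *Lrp2* sh2 lie at similar *Otx2* levels, and uninjected replicate 1 lies far above them in both panels at 55.9 CPM of *Otx2*.

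Among 23 other transcription factors of the RPE and optic vesicle, 2 of 22 tested rose (12.6% of all genes did) and 4 fell (8.47%) in nSREBP2, 0 of 21 tested passed in *Lrp2* sh1, and 5 of 22 tested rose (8.59%) and 3 fell (9.48%) in *Lrp2* sh2. In nSREBP2 the photoreceptor factor *Crx* (log2FC 2.23 ± 0.41, adjusted *P* = 0.00392) and the Hippo pathway coactivator *Wwtr1* (0.56 ± 0.08, 0.000687) rose. Among the patterning genes of the optic vesicle, *Foxd1* (−1.17 ± 0.21, adjusted *P* = 0.00327) and the orphan receptor genes *Nr2f2* (−0.68 ± 0.08, 0.000291) and *Nr2f1* (−0.46 ± 0.09, 0.00564) fell. In *Lrp2* sh2, *Crx* (3.80 ± 0.44, adjusted *P* = 0.000543) and *Meis2* (0.64 ± 0.16, 0.0202) rose and *Nr2f2* (−0.45 ± 0.07, 0.00176), *Tbx3* (−0.44 ± 0.12, 0.032) and *Tbx2* (−0.28 ± 0.08, 0.038) fell. *Crx* is a gene of photoreceptors and bipolar cells, and all 4 tested bipolar cell genes rose in nSREBP2 beside it.

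The genes whose pattern was most like that of a factor were named by Pearson correlation of log2(CPM + 1) over the 18 libraries, among 15072 genes with at least 10 counts in every library. For *Otx2* they were *Mfrp* (0.98), *Rab11fip4* (0.98) and *Arfgef2* (0.97). *Mfrp* encodes a membrane protein of the RPE whose loss gives small eyes in humans. For *Six3* they were *Map3k5*, *Gpc3* and *Rtn4rl1* (0.96 to 0.97), and for *Sox9* they were *Abcd3*, *Fn3krp* and *Scube3* (0.94 to 0.95). The likeness was weaker for *Mitf* (*Coq8a* 0.87, *Bace2* 0.82, *Mtmr2* 0.80), for *Pax6* (*A730017C20Rik* 0.90, *Trim9* 0.88, *Col4a5* 0.85) and for *Lhx2* (*Gm43024* 0.87, *Ggact* 0.86, *Oplah* 0.85). Between the factors themselves, *Otx2* correlated with *Six3* at 0.87 and with *Sox9* at 0.83. The groups differ in level, so these values describe group differences as well as spread within groups.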

How the data were processed

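RPE cells of both eyes of 1 mouse were pooled per library. Per the labels and the study's methods, the authors made ribosomal RNA-depleted directional libraries, mapped paired reads to GRCm38 and counted them per gene with STAR, and deposited the counts as whole numbers without normalization. The annotation and the strand setting are not given in the sources used here. Of the 52636 genes, 16093 had no count, and 52403 identifiers matched GENCODE M21, which gave positions and exon lengths. Totals ranged from 8921885 to 13696934 counts per library, and precision is lowest for *Tfec* and *Rax*. The tissue label of all samples reads retinal, and the sample names and methods give RPE. No replicates agreed within sampling noise (lowest chi-square per degree of freedom 3.57).

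The 9 factors and all gene lists were chosen with earlier results of these data known. Each comparison was tested with edgeR 4.0.16 (R 4.3.3, filterByExpr, TMM scaling, quasi-likelihood F-test) on its 6 libraries, and *P* values were adjusted by the Benjamini-Hochberg method over all genes tested, with a threshold of 0.05. SE was the log2FC divided by the square root of F. Differences between effects and the test over 6 groups used 1 fit of all 18 libraries. Alternatives were DESeq2 1.42.0, DESeq2 size factors, no filter, a joint fit, a sex term, a replicate block, uninjected controls, a log2FC limit of 1, and leaving out libraries in turn. Leaving libraries out for the tests over all 18 libraries and for the function genes, leaving uninjected replicate 1 out of correlations, and the grouping of function genes by role were added after the data were seen. The scripts were tested on simulated data. Beside the 9 factors, the text names, of the function genes and of the other transcription factors, the 3 largest changes in each direction past the threshold in the comparisons with GFP or ctrl sh, the 3 genes most like each factor with at least 10 counts in every library, *Srebf2* and *Lrp2*, and defining markers. *Rpe65*, *Zic1*, *Six6* and, in the correlation and by library, *Ttr* were named after their values were seen, and 1 gene that the rule names is not reported here. Figures were drawn with matplotlib 3.10.9.

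Samples with the same replicate number were not treated as paired. Their deviations from the group means correlated at −0.264 to 0.332. In ctrl sh against GFP and in *Lrp2* sh2 against *Lrp2* sh1, 2 samples matched best with their own number, and in the other comparisons 0 or 1 did. With 3 libraries in a group, these values cannot settle whether samples were paired.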

Additional observations from a re-analysis of the deposited data

Results flagged for a closer look

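Several factors responded differently to the 2 hairpins, by a direct test of *Lrp2* sh2 against *Lrp2* sh1. On the log2 scale *Otx2* differed by −0.75 (adjusted *P* = 0.00588), *Six3* by −0.90 (5.75e-05) and *Sox9* by −0.84 (2.61e-05), beside 12.3% of all genes that were lower. *Pax6* differed by 1.45 (0.000888) and *Rax* by 1.71 (0.00649), beside 10.2% that were higher. In each, the 3 libraries of 1 hairpin lay outside the range of the other. The same held for 20.8% of all genes toward lower and 18.2% toward higher levels. The count stayed at 5 when any of the 6 libraries was left out, but the calls of *Otx2*, *Pax6* and *Rax* were lost in the joint fit of all libraries (adjusted *P* = 0.0796, 0.105 and 0.141) and those of *Pax6* and *Rax* with a sex term (0.101 and 0.0914), and 2 of 3 *Lrp2* sh2 but 0 of 3 *Lrp2* sh1 libraries had Y-linked counts.

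Others differed between the effect of nSREBP2 (against GFP) and that of a hairpin (against ctrl sh), tested as a difference of effects in a fit of all 18 libraries. The nSREBP2 effect minus the *Lrp2* sh1 effect was −1.36 for *Otx2* (adjusted *P* = 0.0475), −1.03 for *Sox9* (0.000705) and −1.44 for *Six3* (5.79e-06), beside 4.68% of all genes that were lower. The nSREBP2 effect minus the *Lrp2* sh2 effect was −0.54 for *Six3* (adjusted *P* = 0.0285), beside 2.4% of all genes. The *Otx2* difference was lost in 11 of 18 fits that left out a library and the *Six3* difference from *Lrp2* sh2 in 6 of 18.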

How the results depend on the processing

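Of the log2FC of single factors recomputed under settings that kept all replicates, 508 stayed on their side of the threshold, 30 no longer passed and 12 came to pass, and a log2FC changed sign only where the main test had made no call. In nSREBP2 against GFP the 3 calls held in DESeq2, with DESeq2 size factors, in the joint fit and with uninjected controls. The number of factors that passed in *Lrp2* sh1 against ctrl sh (2) was 1 in the joint fit, 0 with a sex term, 1 with uninjected controls and 0 with a log2FC limit of 1. In *Lrp2* sh2 against ctrl sh (5) it was 3 with a sex term, 1 with uninjected controls and 2 with the limit. In ctrl sh against GFP (1) it was 3 without a filter and 0 in the joint fit, with a sex term or with the limit. In *Lrp2* sh2 against *Lrp2* sh1 (5) it was 2 in the joint fit, 3 with a sex term and 2 with the limit. Over the 6 groups (3) it was 5 in DESeq2 and 7 without a filter. For the nSREBP2 effect minus the *Lrp2* sh2 effect (1) it was 2 without a filter and 0 with the limit. The cause was not tested, except that the limit removes calls by its construction. Leaving out 1 library in turn gave 3 to 5 in nSREBP2 against GFP (5 without GFP replicate 3), 1 to 3 in *Lrp2* sh1, 3 to 7 in *Lrp2* sh2 (3 without *Lrp2* sh2 replicate 1, 7 without ctrl sh replicate 1), 0 in both comparisons with uninjected, 0 to 1 in ctrl sh against GFP, 5 in *Lrp2* sh2 against *Lrp2* sh1, 3 to 5 over the 6 groups, and 2 to 4 and 0 to 1 for the 2 differences between effects.

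The replicate numbers were not treated as pairs in the main tests. With a replicate block, 1 factor passed in *Lrp2* sh1 against ctrl sh, where *Sox9* was lost (adjusted *P* = 0.0797), while *Lhx2* passed in nSREBP2 (log2FC −0.93, adjusted *P* = 0.00824) and *Pax6* in *Lrp2* sh2 (1.44, adjusted *P* = 0.0246). Low counts limit what can be said of *Rax* and *Tfec*.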
